A study of Mus musculus with 8 samples.

Results

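The T cell receptor variable (V) gene segments were taken as every gene of the count table whose symbol begins with Trav, Trbv, Trgv or Trdv followed by a number. This rule uses names only and found 170 segments among 54232 gene identifiers. There were 128 Trav segments of the alpha chain, 35 Trbv segments of the beta chain, 6 Trdv segments of the delta chain and 1 gamma segment, Trgv2. Of the Trav segments, 10 carry dv in the symbol, as segments shared with the delta chain, and they are counted with the alpha chain throughout. The annotation lists 20 of the Trav, 13 of the Trbv and 1 of the Trdv segments as pseudogenes. Another 8 V genes carry other symbols (6 Tcrg-V genes, C920008G01Rik and B230359F08Rik) and lie outside the rule.

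A T cell receptor gene is assembled during T cell development, when a V segment is joined to a joining (J) segment, with a diversity (D) segment between them in the beta and delta chains. The joined exon is spliced to a constant gene, which is Trac for alpha, Trbc1 or Trbc2 for beta, Trdc for delta and the Tcrg-C genes for gamma. CD8+ T cells, the cytotoxic T cells that recognise peptides on MHC class I, carry an alpha-beta receptor, whereas natural killer (NK) cells kill without a rearranged antigen receptor. In GRCm38 the Trav and Trdv segments lie interleaved on chromosome 14, the Trbv segments on chromosome 6 and the gamma segments on chromosome 13.

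RNA-seq counts were compared between splenic CD8+ T cells and splenic NK cells of mice labelled C57BL/6 and aged 8 to 12 weeks, under homeostatic conditions without treatment. Both groups were Tyk2-/-, lacking the Janus kinase TYK2, which acts below cytokine receptors such as those for type I interferon, so the comparison is between cell types under the same genotype label. Each group had 3 libraries, numbered here 1 to 3, and each library held sorted cells from 3 pooled spleens of littermates. Per the study's methods, Tyk2-/- mice had a C57BL/6N background and the allele tm1Biat, with or without a CMV-cre transgene, and which of these lines gave the libraries is not given in the sources used here. The samples also name 2 WT CD8+ T cell libraries, which were not analysed here because the 3 matching columns do not tell which libraries they are. Whether the libraries of a group came from separate litters or sorts is not given, so p-values measure only the spread between these libraries.

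Library totals were 20957384 to 26144478 counts in CD8+ T cells against 32848432 to 38573550 in NK cells. V segments took 0.194% to 0.221% of all counts in CD8+ T cells against 0.0272% to 0.0324% in NK cells. Tyk2 had 105, 919 and 554 counts in CD8+ T cells against 3864, 4245 and 3207 in NK cells, and a count over the whole gene does not say which exons it comes from, so it does not check the genotype. Cd8b1 had 60044 to 80266 counts in CD8+ T cells against 0 in every NK library. The NK cell receptor gene Ncr1 had 137008 to 195219 counts in NK cells and 0 in every CD8+ T cell library. Of 8 NK cell marker genes, however, 6 had more than 3 counts in a CD8+ T cell library. The 8 summed to 2415, 1713 and 2270 counts in CD8+ T cell libraries 1, 2 and 3, against 1532075 to 2089896 in NK cells. Most of the former were from Eomes (825, 350 and 1553) and Gzma (1412, 568 and 0), and Tyrobp had 0, 544 and 0. The source of these counts was not tested. The CD8+ T cell libraries were uneven between each other: of 10449 genes that reached 100 scaled counts in at least 1 of them, 19.2% had no count in another, against 3.46% of 10453 genes in NK cells. Each library started from 500 pg of RNA, and the part of the input amount in this unevenness was not tested.

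Alpha and beta V segments were abundant in CD8+ T cells and scarce in NK cells, and delta V segments showed the opposite order. Summed Trbv counts, normalised for library size, were 36916, 45062 and 38958 in CD8+ T cells against 748, 343 and 967 in NK cells, a ratio of means of 58.8. Summed Trav counts were 12443, 10511 and 16544 in CD8+ T cells against 51.6, 58.6 and 156 in NK cells, a ratio of 149 that was 239 without NK cell library 3. Summed Trdv counts were 327, 275 and 299 in CD8+ T cells against 9100, 8389 and 9781 in NK cells, which is 30.3-fold higher in NK cells. In these 3 chains the groups did not overlap, whereas Trgv2, with 42, 0 and 0 counts in CD8+ T cells against 15, 0 and 1 in NK cells, overlapped. A two-sided exact permutation test gave p = 0.1 for each of the first 3 chains, the smallest value that 3 against 3 libraries allow, and p = 1 for Trgv2. Adjusted over the 4 chains by Benjamini-Hochberg, these exact values were 0.133 and 1. In such bulk samples, fewer cells of a type and less RNA per cell cannot be told apart.

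**Figure D1:**
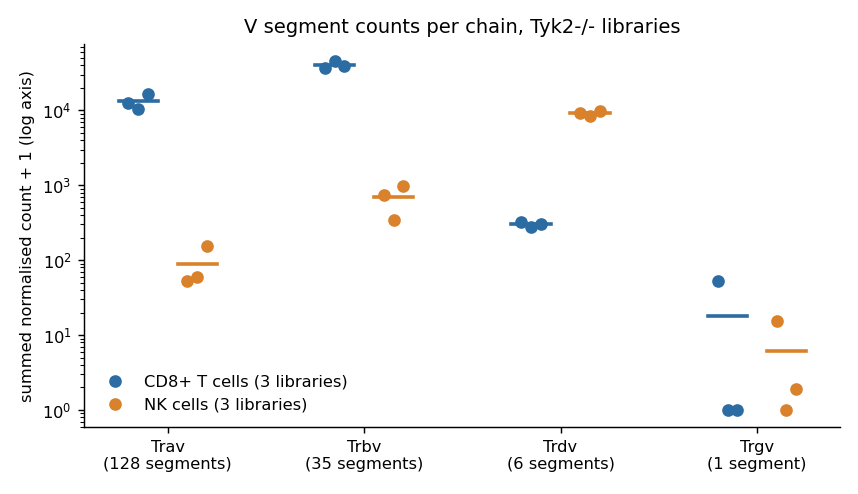
Summed normalised counts plus 1 of the V segments of each chain (log axis) in the 3 CD8+ T cell and 3 NK cell libraries; points are libraries and bars are group means. Trav and Trbv sums were higher in every CD8+ T cell library, Trdv sums were higher in every NK cell library, and Trgv2 overlapped.

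Within the V counts, the beta chain held 69.8% to 80.7% in CD8+ T cells, the alpha chain 18.8% to 29.6% and the delta chain 0.492% to 0.657%. In NK cells the delta chain held 89.7% to 95.4%. Of the Trav counts in CD8+ T cell libraries 1, 2 and 3, the 10 dv segments held 2.62%, 11.7% and 11.1%. More than 3 counts were found for 76, 83 and 73 of the 170 segments in CD8+ T cell libraries 1, 2 and 3, and for 14, 12 and 17 in the NK cell libraries, although the NK cell libraries were deeper. In every CD8+ T cell library 58 segments passed this floor, and in every NK cell library 3 did. The other end of the list was long: 69 of 170 segments had no count in any of the 6 libraries, and 80 stayed below the filter on low counts and were not tested singly.

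Gene by gene, the quasi-likelihood test of edgeR, adjusted by the Benjamini-Hochberg method over 14062 genes, called 29 of the 170 segments higher in CD8+ T cells at adjusted p under 0.05, and 2 segments higher in NK cells. Over all genes tested, the same rule called 5.14% higher in CD8+ T cells and 6.26% higher in NK cells, 11.4% in all. Of the 90 segments tested, the libraries of the groups did not overlap, with CD8+ T cells higher, for 60, against 16.1% of all genes tested. They did not overlap with NK cells higher for 3 of the 90 (Trdv2-2, Trdv4 and Trav22), against 25.5% of all genes tested. The filter on low counts used the mean over both groups. Segments without a count in NK cells, such as Trav13-1 and Trbv14, passed it through CD8+ T cells alone and could not come out higher in NK cells. The counts of segments in each direction are therefore descriptions and not a test of the segments as a set. Among the segments that were not tested, the groups did not overlap for Trav6-3, with CD8+ T cells higher, and for Trdv5, with NK cells higher. The 29 were 21 Trav and 8 Trbv segments. DESeq2 called 66 segments higher in CD8+ T cells, where it called 12.7% of all genes with an adjusted p, and 2 higher in NK cells, where it called 16.9%, which is 29.6% of these genes in both directions. Without NK cell library 1, 2 or 3 edgeR called 10, 9 and 10 segments higher in CD8+ T cells, against 1.76%, 1.8% and 1.75% of all genes tested in those fits. Without CD8+ T cell library 1, 2 or 3 it called 19, 21 and 18, against 4.74%, 5.27% and 5.26%. Higher in NK cells it called 1 segment without NK cell library 1, 2 or 3, against 1.73%, 1.74% and 1.72% of all genes, and 1, 2 and 2 segments without CD8+ T cell library 1, 2 or 3, against 7.03%, 8.59% and 7.65%. In both directions these fits called 3.49%, 3.54% and 3.46% of all genes without an NK cell library and 11.8%, 13.9% and 12.9% without a CD8+ T cell library.

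Among the beta segments, Trbv12-2 had the highest mean level in CD8+ T cells, with 3121, 3841 and 5842 counts, followed by Trbv12-1 with 5231, 2779 and 1914. Library 1 was highest for Trbv12-1 and lowest for Trbv12-2, so the order of these segments changed between libraries. Trbv16 had 1741, 3759 and 4215 counts and Trbv13-1 had 2941, 2997 and 2719. Trbv3 had 1079, 3227 and 3888 counts, Trbv13-3 had 2157, 1771 and 4323, and Trbv29 had 2110, 1892 and 3999. Trbv1, the segment farthest from the constant genes, was the steadiest of the 8 leading segments, with 2047, 1900 and 2580 counts, a normalised mean of 2444 ± 98.4 (SD, n = 3). The 8 leading segments together held 69.4%, 64.5% and 76.8% of the beta counts of the 3 libraries when ranked within each library.

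The germline ends of these 8 segments are shown because this is the part of the segment that enters the joint with D and J, where the most variable loop of the receptor is encoded. Each line gives the last 45 bases of the longest annotated transcript from GENCODE M21 (GRCm38), and the capitals mark the codon of the conserved cysteine at which that loop begins.
Trbv12-2 (chr6:41118851-41119364, plus strand): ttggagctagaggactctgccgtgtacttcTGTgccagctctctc
Trbv12-1 (chr6:41113550-41114067, plus strand): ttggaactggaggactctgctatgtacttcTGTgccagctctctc
Trbv16 (chr6:41151740-41152230, plus strand): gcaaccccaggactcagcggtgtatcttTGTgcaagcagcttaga
Trbv13-1 (chr6:41116007-41116468, plus strand): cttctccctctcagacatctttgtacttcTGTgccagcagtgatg
Trbv3 (chr6:41048290-41048828, plus strand): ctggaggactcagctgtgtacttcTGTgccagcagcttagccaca
Trbv13-3 (chr6:41130147-41130585, plus strand): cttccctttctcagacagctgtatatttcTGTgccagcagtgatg
Trbv29 (chr6:41271394-41271881, plus strand): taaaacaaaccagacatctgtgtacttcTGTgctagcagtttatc
Trbv1 (chr6:40891229-40891885, plus strand): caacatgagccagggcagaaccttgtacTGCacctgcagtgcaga
Trbv1 is the segment of this set with the codon TGC, and the other segments have TGT. Between 12 and 18 germline bases follow the codon, and Trbv12-1 and Trbv12-2 differ at 4 of the 45 positions. A count of 50-base reads cannot show the trimmed or added bases of a joint, so these lines are the germline reference and not the joints of the sampled cells.

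Scaled per kb of exon, which allows levels of different segments to be compared, the order at the top was much the same. Trbv12-2 had a mean of 12279 normalised counts per kb in CD8+ T cells, Trbv12-1 had 9992, Trbv13-1 had 9885 and Trbv16 had 9061. The value of Trbv12-1 comes from a normalised mean of 3887 ± 2311 (SD, n = 3), so its place among these 4 segments is within its spread. At the low end of the V genes with counts in every library, Trbv5 had 411 per kb, Trbv4 had 763 and Trbv23 had 778. Trbv4 and Trbv5 share 72.1% and 77.4% of their 50-base windows with the non-coding gene 5830405F06Rik, which overlaps them on the same strand, and reads in such an overlap can be left out of the count of either gene.

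**Figure D2:**
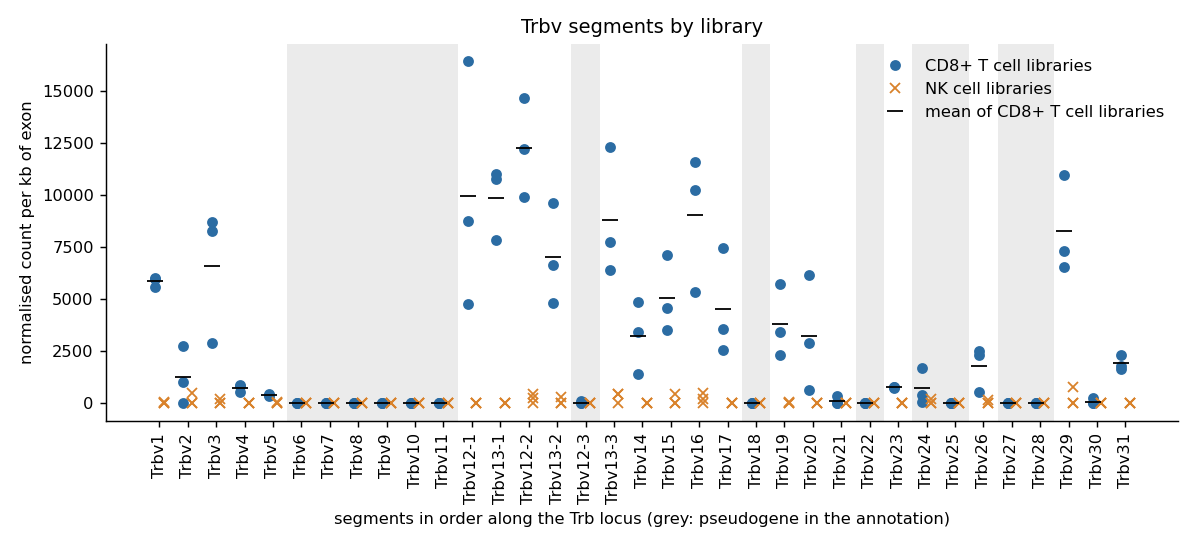
Normalised count per kb of exon for the 35 Trbv segments in order along the locus, in 3 CD8+ T cell libraries (circles, mean as a bar) and 3 NK cell libraries (crosses); grey bands mark segments annotated as pseudogenes. Trbv12-2, Trbv12-1, Trbv13-1 and Trbv16 had the highest means in CD8+ T cells, and 11 of the 13 pseudogenes had no count.

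The functional annotation and the counts divided the beta locus sharply. All 22 Trbv segments annotated as V genes had more than 3 counts in at least 1 CD8+ T cell library, and 20 did so in all 3. Of the 13 pseudogenes, 11 had no count in any of the 6 libraries, although their 50-base windows were found at no other place in the annotated transcripts, and Trbv8 lies wholly within another annotated gene. Trbv24 was the exception, with 25, 482 and 145 counts in CD8+ T cells against 75, 0 and 6 in NK cells, and Trbv12-3 had 32 counts in library 1 alone. Pseudogenes held 0.62% ± 0.605 (SD, n = 3) of the beta counts of CD8+ T cells.

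Trbv31 lies apart from the other beta segments, downstream of the constant genes and on the opposite strand (chr6:41557691-41558452), so that it is joined by inversion. It had 450, 637 and 613 counts in CD8+ T cells against 0 in every NK cell library. Its share of the beta counts was 1.58% ± 0.132 (SD, n = 3). Against a floor of 3 counts in each NK cell library it was at least 237-fold higher in CD8+ T cells, with an adjusted p of 0.0111 (edgeR). Trbv21 and Trbv30 were nearly confined to library 1 of the CD8+ T cells, with 81, 0 and 0 counts and with 68, 1 and 0 counts.

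The 8 beta segments called higher in CD8+ T cells were Trbv1, Trbv12-1, Trbv13-1, Trbv14, Trbv17, Trbv20, Trbv23 and Trbv31. Trbv12-1 had 1, 1 and 0 counts in NK cells, and its ratio was 6205 with a 95% exact counting interval of 1717 to 51241 (edgeR adjusted p = 0.000953). Trbv13-1 had 0, 2 and 0 counts in NK cells, a ratio of 5413 with an interval of 1498 to 44700 (edgeR adjusted p = 0.00114). This ratio rests on NK cell library 2, without which the NK cell group is at 0 and has no exact fold. Such intervals cover counting error only, since PCR copies of a molecule are counted as separate reads. Trbv14 and Trbv17 had no count in NK cells and were at least 440-fold and 626-fold higher in CD8+ T cells, with adjusted p of 0.00922 and 0.00625. These 4 and Trbv31 remained called in each of the leave-one-out fits, whereas Trbv1 lost its call without NK cell library 1 (adjusted p = 0.111, the highest over its alternatives) or 2 (0.0577). Trbv20 and Trbv23 lost theirs without any single NK cell library, with highest adjusted p of 0.0649 and 0.101.

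The segments that led in CD8+ T cells were not all called, and their NK cell counts lay mostly in 1 or 2 libraries. Trbv12-2 had 0, 109 and 202 counts in NK cells (adjusted p = 0.0622), Trbv16 had 197, 0 and 89 (0.0813) and Trbv13-3 had 160, 191 and 1 (0.076). Trbv3 had 110, 0 and 0 (0.107) and Trbv29 had 0, 13 and 307 (0.137), so the NK cell library with counts differed from segment to segment. Over 9 alternatives, Trbv12-2, Trbv16 and Trbv13-3 were each called in 2, with lowest adjusted p of 3.96e-05, 0.000454 and 0.000323. Trbv3 and Trbv29 were each called in 1, with lowest adjusted p of 0.0153 and 0.00557. Across the beta chain, 14 of 35 segments had more than 3 counts in at least 1 NK cell library, 7 of these in exactly 1, and no segment in all 3. Of the 6 Trbv segments that reached 100 scaled counts in an NK cell library, 4 had no count in another (66.7%), against 3.46% of all genes that reached this level in NK cells. In CD8+ T cells 1 of 22 did (4.55%), against 19.2% of all genes. These shares are not matched for level, since genes at any level above the cut enter the share of all genes.

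The T cell genes in the NK cell libraries are given beside these counts. Of 10 CD8+ T cell marker genes, 7 had more than 3 counts in an NK cell library, and their summed counts were 11473 to 21261 in NK cells and 234925 to 301190 in CD8+ T cells. The sum in NK cells came mainly from Cd3d, Cd3g, Lef1 and Tcf7, with 2978 to 8065 counts of Cd3d. Cd8b1 and Cd6 were at 0 in every NK cell library, Cd5 had at most 2 counts and Cd8a had 22, 0 and 0. CD4+ T cell markers had 660, 35 and 226 summed counts in NK cells, mostly Zbtb7b in libraries 1 and 3, and Foxp3 was at 0. The part of other T cells in the Trbv counts of NK cells was not tested.

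The alpha chain was spread over many more segments, each at a low level. Trav12-2 led with 1411, 765 and 685 counts in CD8+ T cells, followed by Trav14-1 with 622, 460 and 1102 and Trav13-1 with 476, 521 and 747. Trav12-1 had 338, 130 and 1316 counts, the highest of all Trav segments in library 3. Trav5-4 had 518, 361 and 630 counts, Trav14-2 had 656, 257 and 419, Trav14d-3-dv8 had 38, 283 and 883 and Trav16n had 265, 301 and 479. Trav13-1, Trav5-4 and Trav16n varied little between libraries, and Trav12-1 and Trav14d-3-dv8 varied most of the 8. Per kb of exon, the means were 2604 for Trav12-2, 1998 for Trav14-1, 1958 for Trav13-1 and 912 for Trav14d-3-dv8, below the leading beta segments.

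Segment use was summarised by the effective number of segments, the inverse Simpson index, which equals the number of segments if all are used alike. For Trav it was 21.8, 28.7 and 29.7 in CD8+ T cell libraries 1, 2 and 3, and for Trbv it was 12.4, 14.8 and 11.5. The leading segment held 13.9%, 8.93% and 7.7% of the alpha counts and 17.3%, 10.5% and 14.5% of the beta counts. The 5 leading segments of each library held 27.8% to 36.2% of the alpha counts and 45.2% to 55.3% of the beta counts. In each library the alpha chain thus had the larger effective number, over 128 annotated segments against 35. Of the 128, however, 41 share every stretch of a read's length with other genes, as described below, so that their reads were not counted. In the beta chain 31 of 35 segments share no such stretch with a gene elsewhere. The alpha number therefore covers countable segments only.

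Between libraries, the shares of single beta segments had higher correlations than those of single alpha segments, in rho and in r for each pair of libraries. Over the 24 Trbv segments with more than 3 counts in a CD8+ T cell library, Spearman's rho between the shares in 2 libraries was 0.818 to 0.866 and Pearson's r was 0.646 to 0.795. Over 66 Trav segments, rho was 0.277 to 0.405 and r was 0.397 to 0.646. These are descriptions across segments of the same libraries, which are not independent replicates, and Trav counts per segment were lower. Of the genes with a mean of at least 100 in CD8+ T cells, the median coefficient of variation over libraries was 0.577 for all 9093 genes tested, 0.81 for 39 Trav segments and 0.362 for 21 Trbv segments.

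Several alpha segments were present in 1 or 2 CD8+ T cell libraries and had no count in another. Of 56 Trav segments that reached 100 scaled counts, 14 did so (25%), close to the 19.2% of all genes, shares that are not matched for level. Trav16 had 0, 487 and 456 counts, Trav7n-4 had 413, 86 and 0, Trav3-4 had 0, 4 and 303, and Trav1 had 1, 301 and 0. Trav23, the Trav segment nearest to Trac, had 282, 0 and 0 counts. No library was the empty one throughout, since each of the 3 was at 0 for some of these segments.

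Alpha use was also summed by family, which is the number in the symbol. The 23 Trav families had an effective number of 8.52, 11.4 and 11.2. Over the 20 families with a segment above 3 counts in a CD8+ T cell library, rho between libraries was 0.734 to 0.86 and r was 0.83 to 0.878, a description over fewer and larger sums than the 66 segments. The Trav12 family held 15.7% ± 4.88 (SD, n = 3) of the alpha counts, Trav14 held 15.5% ± 1.92, Trav7 held 11.4% ± 2.84 and Trav13 held 8.85% ± 0.722. The order of Trav12 and Trav14 was within their spread. Segments without a read-length stretch of their own were 5 of 10 in Trav12 and 4 of 9 in Trav14. They were 4 of 13 in Trav7 and 3 of 12 in Trav13, so the family shares cover countable reads only. The Trav4 family was uneven, with 0.216%, 4.84% and 2.14% in libraries 1, 2 and 3. Trav18 and Trav20 had no count in any library, and Trav22 had counts in NK cells only.

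The 21 alpha segments called higher in CD8+ T cells included Trav13-1, Trav5-4, Trav14-2 and Trav16n, which had no count in NK cells. Against the floor of 3 counts in each NK cell library they were at least 239-fold, 207-fold, 187-fold and 142-fold higher in CD8+ T cells, with edgeR adjusted p of 0.0108, 0.0133, 0.0177 and 0.0201. Trav13-1 was called in each leave-one-out fit. The calls of Trav14-2 and Trav16n were lost without any single NK cell library, with adjusted p up to 0.0648 and 0.0775, and that of Trav5-4 without library 1 or 3, up to 0.0507. Trav12-2, with 0, 0 and 11 counts in NK cells, had a log2 fold change of -8.34 (SE 1.95, edgeR adjusted p = 0.0433). Its call was lost without NK cell library 1 or 2 and without CD8+ T cell library 1 or 2, with adjusted p from 4.35e-08 (DESeq2) to 0.126 over the alternatives. The fold change rests on the 11 counts of NK cell library 3, without which the NK cell group is at 0 and has no exact fold. Trav14-1 and Trav12-1 were not called (edgeR adjusted p = 0.126 and 0.16), with 0, 43 and 0 and with 0, 0 and 37 counts in NK cells. Over 9 alternatives they were called in 2 and 1, with lowest adjusted p of 0.00364 and 0.0138.

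In NK cells, 9 of 128 Trav segments had more than 3 counts in a library, 8 of them in exactly 1 library. Trav1 had 0, 0 and 100 counts. Trav22, a pseudogene in the annotation, had 53, 12 and 1 counts in NK cells and 0 in CD8+ T cells (adjusted p = 0.138). Trav22 lies within the part of the locus that holds Trdv1 and the Trdv2 segments, 293 kb from Trac.

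The alpha locus is unusual in mice because a long stretch of it is present in repeated copies, and the symbols of the copies carry the letters d or n after the family number. Segments without a letter number 55, those with d number 39 and those with n number 34. In the CD8+ T cell libraries the 55 held 77.3% ± 2.14 (SD, n = 3) of the alpha counts, the d segments 10.6% ± 2.57 and the n segments 12.1% ± 1.2. More than 3 counts in at least 1 CD8+ T cell library were found for 43 of 55 segments without a letter, for 11 of 39 d segments and for 12 of 34 n segments.

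Position along the locus followed the same line. The segments were ordered by position and split into 3 parts of like number. The 42 segments nearest to Trac, at 243 to 759 kb, held 65.5% ± 2.34 (SD, n = 3) of the alpha counts. The 43 segments of the middle part, at 766 to 1173 kb, held 18.5% ± 0.879, and the 43 of the distal part, at 1178 to 1792 kb, held 16% ± 2.41. The nearest part held no d or n segment, whereas 38 of 43 in the middle and 35 of 43 in the distal part carried such a letter. Position and copies therefore cannot be told apart by this split, and reads that align to several copies were not counted, as described below. At the far end, segments without a letter again had counts, such as Trav7-1 with 155, 39 and 704 and Trav3-1 with 287, 43 and 364.

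**Figure D3:**
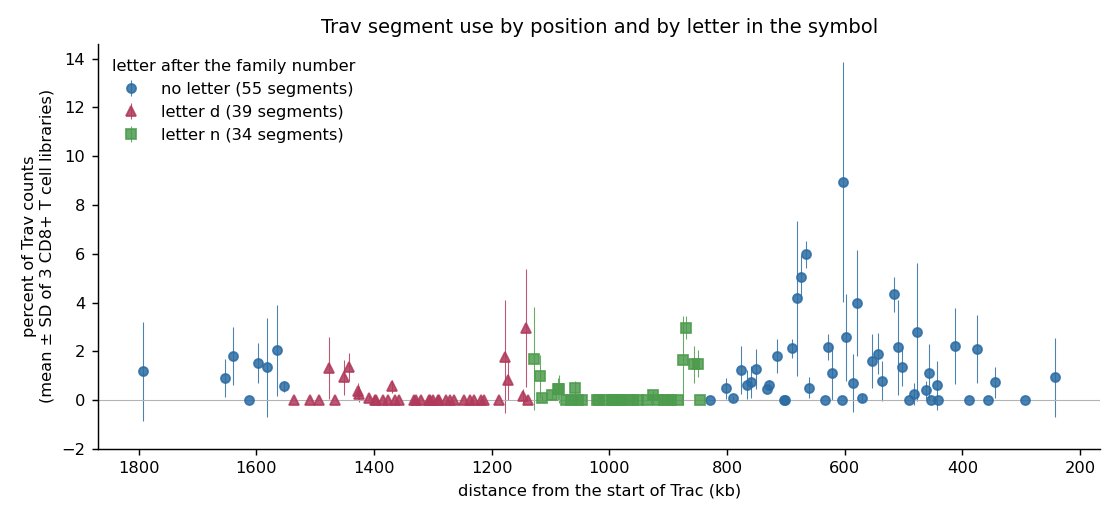
Share of the alpha counts of each of the 128 Trav segments (mean ± SD of 3 CD8+ T cell libraries) against distance from the start of Trac (kb), with symbols by the letter in the segment name. Most d and n segments sit at or near 0, and the highest shares belong to segments without a letter nearer to Trac. Reads that align to several places were not counted.

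The authors counted only reads that align to a single place, so the sequence shared by copies bears directly on these values. Each segment's annotated transcripts were cut into every window of 50 bases, the read length, and a window was called single-place when no gene elsewhere in the annotated transcripts held it on either strand. Of the 128 Trav segments, 41 had no single-place window, 34 had such windows for under 50% of their length, 43 for 50% to under 100% and 10 for all of it. None of the 41 had more than 3 counts in any library, and 40 of them had no count at all. Of the 34 with under 50%, 25 had more than 3 counts in a CD8+ T cell library, as did 34 of the 43 and 7 of the 10. Thus 40 of the 58 Trav segments without any count hold no stretch of a read's length that these transcripts place at a single gene, and for these a value of 0 says nothing about expression. Of the 41, 20 lay in the distal, 19 in the middle and 2 in the nearest part of the locus. The median share of single-place windows was 64.6% for segments without a letter and 0% for d and for n segments. The shares by letter and by position are therefore shares of countable reads, from which segment use cannot be read.

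The Trav12 family shows this at the sequence level. The lines give the last 120 bases of the longest annotated transcript of the leading segment and of a pair of its copies (GENCODE M21, GRCm38), and capitals mark the bases that differ from Trav12-2.
Trav12-2 (chr14:53616315-53616914, plus strand): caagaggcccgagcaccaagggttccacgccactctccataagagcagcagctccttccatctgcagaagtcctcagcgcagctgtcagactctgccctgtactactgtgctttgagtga
Trav12d-2 (chr14:52915799-52916426, plus strand): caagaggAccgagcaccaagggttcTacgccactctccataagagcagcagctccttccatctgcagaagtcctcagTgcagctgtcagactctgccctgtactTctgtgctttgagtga
Trav12n-2 (chr14:53226773-53227400, plus strand): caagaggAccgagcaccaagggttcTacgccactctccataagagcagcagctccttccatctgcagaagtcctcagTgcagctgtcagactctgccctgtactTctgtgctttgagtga
Both copies differ from Trav12-2 at 4 of the 120 positions and from each other at none of their 454 bases. Trav12-2 had single-place windows for 70.8% of its length and the highest count of the alpha chain, whereas Trav12d-2 and Trav12n-2 had none and no count in any library. In all, 38 of the 41 segments without a single-place window had every window in another Trav segment, such as Trav13d-2 in Trav13n-2 and Trav12d-1 in Trav12n-1. Within the Trav12 family, 5 of 10 segments had no single-place window and 3 had more than 3 counts in a CD8+ T cell library.

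**Figure D4:**
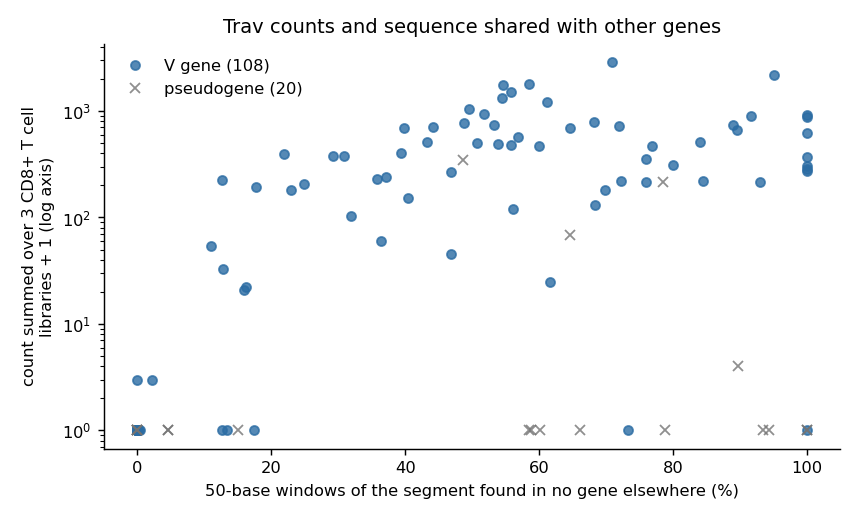
Count summed over the 3 CD8+ T cell libraries plus 1 (log axis) against the percent of a segment's 50-base windows that are found in no gene elsewhere, for 108 Trav V genes (circles) and 20 Trav pseudogenes (crosses). The 41 segments at 0% had at most 2 counts in a library, and segments with higher counts lay to the right of them.

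Of the 18 remaining Trav segments without a count, 11 were pseudogenes and 7 were V genes with at least a single-place window (Trav7d-2, Trav6d-4, Trav15d-1-dv6d-1, Trav9d-4, Trav12n-3, Trav13n-3 and Trav18). Among the 20 alpha pseudogenes, 15 had no count in any library. Trav9n-1 had 197, 17 and 134 counts in CD8+ T cells and Trav11n had 0, 26 and 189, the highest of the alpha pseudogenes. Trav11n belongs to the family whose member Trav11 is used by invariant natural killer T cells. Trav11 itself had no count in any library, and it had no single-place window.

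The delta segments carried the V counts of NK cells. Trdv2-2 had 6949, 7784 and 8345 counts in NK cells and 81, 224 and 15 in CD8+ T cells. Trdv4 had 2307, 2185 and 2527 counts in NK cells and none in CD8+ T cells. Together they made up 90.8%, 95% and 89.6% of the V counts of NK cell libraries 1, 2 and 3. Both were steady between NK cell libraries, unlike the beta segments, with normalised means of 6928 ± 512 and 2116 ± 248 (SD, n = 3). Per kb of exon, the mean in NK cells was 17451 for Trdv2-2, above the mean of every beta segment in CD8+ T cells, and 4765 for Trdv4.

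The germline ends of these segments, the last 45 bases with the cysteine codon in capitals (GENCODE M21, GRCm38), are shown as for the beta chain.
Trdv2-2 (chr14:53960944-53961602, plus strand): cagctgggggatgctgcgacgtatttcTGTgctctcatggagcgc
Trdv4 (chr14:54074905-54075515, plus strand): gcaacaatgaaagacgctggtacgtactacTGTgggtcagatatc
Trdv4 was at least 619-fold higher in NK cells against a floor of 3 counts in each CD8+ T cell library (edgeR adjusted p = 0.0018), and it was called in each leave-one-out fit. Trdv2-2 had a log2 fold change of 5.74 (SE 1.04, adjusted p = 0.0195) in NK cells over CD8+ T cells. Its call was lost without CD8+ T cell library 1 (adjusted p = 0.0557) and without NK cell library 1, 2 or 3 (0.073, 0.0684 and 0.0756), and its lowest adjusted p was 4.62e-11 with DESeq2. The log2 fold change was 6.97 without CD8+ T cell library 2, which holds the highest of the CD8+ T cell counts.

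The values of Trdv2-2 rest on part of its sequence. It shares 52.6% of its 50-base windows with Trdv2-1, and the other 47.4% were single-place. The antisense gene Gm43647 holds 37.6% of the windows of Trdv2-2, all of them among those shared with Trdv2-1, so none of the single-place windows lay in an annotated transcript of another gene. Gm43647 had 475, 602 and 329 counts in NK cells and 0, 0 and 68 in CD8+ T cells. All 50-base windows of Trdv4 were single-place.

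The other delta segments were low. Trdv1 had 186, 0 and 268 counts in CD8+ T cells against 0 in every NK cell library (edgeR adjusted p = 0.129). It was called in 2 of 9 alternatives, with a lowest adjusted p of 0.0118. Trdv2-1 had 59, 40 and 6 counts in NK cells and 0, 0 and 26 in CD8+ T cells. Trdv5, which lies downstream of Trdc, had 37, 4 and 2 counts in NK cells and none in CD8+ T cells, and 40.6% of its windows overlap Trdc. The pseudogene Trdv3 had 2 counts in NK cell library 2 alone. Of the V genes outside the name rule, Tcrg-V1 had 200, 98 and 61 counts in NK cells and 0, 31 and 0 in CD8+ T cells, Tcrg-V5 had 34, 94 and 76 against 0, and Tcrg-V6 had 38, 48 and 50 against 0. B230359F08Rik, a V gene of the alpha-delta locus, had 138, 318 and 110 counts in NK cells and 1, 61 and 38 in CD8+ T cells. None of these 4 was called (edgeR adjusted p = 0.414, 0.0598, 0.0618 and 0.394).

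**Figure D5:**
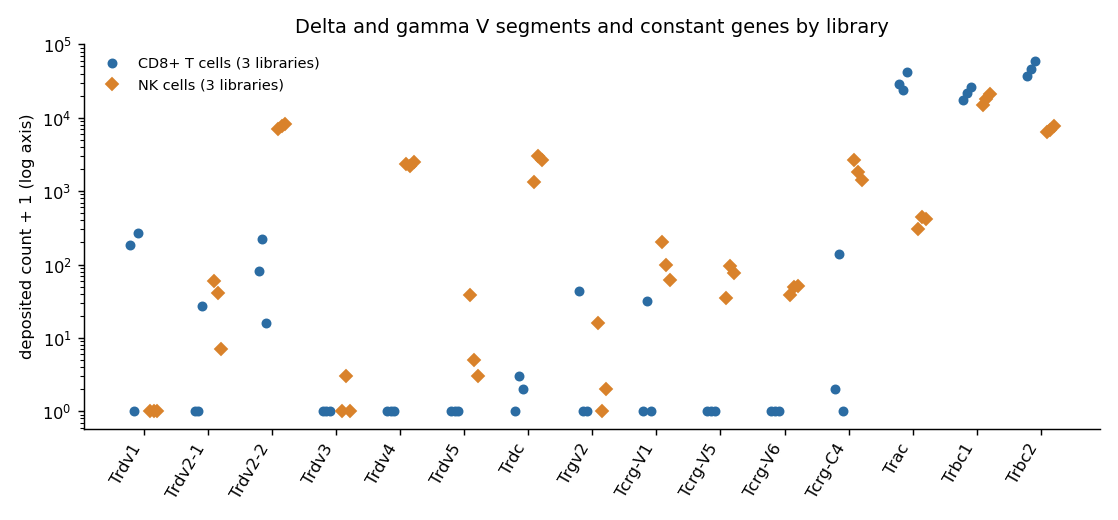
Deposited counts plus 1 (log axis) of the delta segments, the gamma V genes with counts, and constant genes in 3 CD8+ T cell libraries (circles) and 3 NK cell libraries (diamonds). Trdv2-2, Trdv4 and Trdc were high in every NK cell library, Trac was high in every CD8+ T cell library, and the deposited counts of Trbc1 overlapped between the groups, which they did not after normalisation for library size.

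The other genes of the receptor were taken from a list of 100 genes: constant genes, CD3 chains, recombination genes and the J and D segments. Of these, 75 were tested, and 11 passed the test with higher counts in CD8+ T cells, beside 5.14% of all genes tested. Another 5 passed with higher counts in NK cells, a share of the 75 near the 6.26% of all genes tested. Trac, the alpha constant gene, had 28626, 24276 and 42514 counts in CD8+ T cells against 308, 441 and 419 in NK cells, a log2 fold change of -6.66 (SE 0.24, adjusted p = 0.00017). Trbc2 had 37325, 46327 and 58524 against 6468, 6818 and 7809, a log2 fold change of -3.06 (SE 0.17, adjusted p = 0.000286). Trbc1 had 17410, 21882 and 26643 counts in CD8+ T cells against 15108, 17849 and 21224 in NK cells, and it was not called (log2 fold change -0.60, SE 0.18, adjusted p = 0.0755). Normalised for library size, these were 21301, 26836 and 25782 against 14701, 14951 and 19081, which did not overlap. Trdc had 0, 2 and 1 counts in CD8+ T cells against 1350, 3027 and 2619 in NK cells (adjusted p = 0.00205). The gamma constant gene Tcrg-C4 had 2622, 1802 and 1404 counts in NK cells and 1, 137 and 0 in CD8+ T cells (adjusted p = 0.166).

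The beta chain thus differed between V and constant genes in NK cells. For every 100 counts of Trbc1 and Trbc2 there were 55.1, 53.9 and 47.3 Trbv counts in CD8+ T cells against 3.56, 1.66 and 3.71 in NK cells. These groups did not overlap, with a two-sided exact permutation p of 0.1, the smallest the design allows. For every 100 Trac counts there were 35.5, 35.3 and 40.2 Trav counts in CD8+ T cells against 17.2, 15.9 and 41.3 in NK cells, which overlapped (exact permutation p = 0.4). In NK cells there were 693, 331 and 415 Trdv counts for every 100 Trdc counts. In CD8+ T cells Trdc had 0, 2 and 1 counts, below the floor, beside 267, 224 and 309 Trdv counts. Trdv counts thus exceeded those of their constant gene in every library, so they cannot be read as complete delta chain transcripts. The source of this excess was not tested. Germline transcripts that hold a constant gene and no V segment are known from lymphocytes, and the counts do not show which transcripts were read.

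Of the 16 beta J and D segments, 2 were called higher in NK cells, against 6.26% of all genes tested, both in the J cluster that precedes Trbc1. Trbj1-1 had 2561, 4021 and 4856 counts in NK cells and 712, 727 and 795 in CD8+ T cells, a log2 fold change of 2.01 (SE 0.32, adjusted p = 0.0123). Trbj1-2 had 1639, 2349 and 2680 against 591, 549 and 533 (log2 fold change 1.64, SE 0.38, adjusted p = 0.0394). Of the delta joining and diversity segments, Trdj1 had 927, 859 and 817 counts in NK cells and Trdd2 had 245, 229 and 151, with no count in CD8+ T cells (adjusted p = 0.00878 and 0.0388). Of 60 Traj segments, 45 were tested, and 6 were called higher in CD8+ T cells against 0 in the other direction. In the beta chain all 16 J and D segments were tested, and 1 was called higher in CD8+ T cells, a share near the 5.14% of all genes.

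The CD3 chains carry the signal of the receptor into the cell. Cd3g had 56552, 70449 and 72144 counts in CD8+ T cells against 4879, 7598 and 4337 in NK cells (log2 fold change -3.91, SE 0.24, adjusted p = 0.000441), and Cd3d was called as well (-3.54, SE 0.36, adjusted p = 0.00241). Cd3e had 1009, 725 and 711 against 276, 509 and 227 counts and was not called (adjusted p = 0.123). Cd247, the zeta chain that also serves receptors of NK cells, had 19433, 16822 and 33417 against 16155, 18655 and 16572 (adjusted p = 0.063). The recombinase genes Rag1 and Rag2 and the pre-T cell receptor gene Ptcra had no count in any library. Dntt, which adds bases at the joints during development, had 0, 344 and 2122 counts in CD8+ T cells against 0, 1 and 15 in NK cells.

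Markers of gamma delta T cells are given beside the delta counts of NK cells. Of the 4 genes of that list found in the table, Trdc and Cd163l1 had more than 3 counts in an NK cell library. Cd163l1 had 14, 189 and 0 counts in NK cells, whereas the lineage factor Sox13 was at 0 in every library and Blk was at 0 in every NK cell library. The summed list had 1364, 3216 and 2619 counts in NK cells, of which Trdc made up nearly all, and 137, 113 and 1 in CD8+ T cells. The part of gamma delta T cells in the delta counts was not tested. Of a list of 3 genes for natural killer T cells, Zbtb16 had 46, 105 and 9 counts in NK cells and none in CD8+ T cells. Cd3e had the counts given above. Trav11 was at 0 in every library, which says nothing about its expression, since it had no single-place window. The summed list had 322, 614 and 236 counts in NK cells and 1009, 725 and 711 in CD8+ T cells, where all of it was Cd3e.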

How the data were processed

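Bulk RNA-seq of sorted splenic CD8+ T cells and NK cells of Tyk2-/- mice was analysed with 3 libraries per group. Per the labels and the study's methods, the authors prepared amplified cDNA libraries from 500 pg of RNA, sequenced 50-base single-end reads, used Trimmomatic 0.32 for trimming and STAR 2.7.1 for alignment to mm10, and counted uniquely aligned reads in exons of an Ensembl GENCODE Basic annotation of GRCm38 in R 3.2.3. The values are raw counts per gene, deposited by the authors in a table with 104 columns of values, of which 98 were not used here. The 3 WT CD8+ T cell columns are among these, since only 2 such samples are named. Identifiers were matched to symbols with GENCODE M21, which found 54079 of 54232; the other 153 stayed in the tests.

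Counts were compared with edgeR 4.0.16 (TMM factors, quasi-likelihood test, mean normalised count of at least 10, Benjamini-Hochberg adjustment over all genes, adjusted p under 0.05), with a design of cell type alone. The fit was tested on simulated counts, with no outcome given here, so no result above rests on that test. DESeq2 1.42.0, RLE factors, no filter and each library left out were alternatives. Normalised counts are counts divided by the effective library size relative to its mean. Chain sums were compared by a two-sided exact permutation test (scipy 1.17.1). Floors are 3 counts per library; intervals and floors cover counting error only. Scaled counts are counts scaled to the mean library total. Windows of 50 bases were searched in GENCODE M21 transcripts, not in a genome, so a copy outside annotated transcripts is missed. Replicates differed by far more than counting noise, with 374.58 to 397.55 as the mean chi-square per gene between CD8+ T cell libraries and 105.24 to 109.56 between NK cell libraries. Segments were named by rank of mean normalised count in CD8+ T cells (8 each of Trav and Trbv), by call in NK cells, by more than 3 counts for Trdv and Trgv, by rank in NK cells, by gaps between libraries, by missing single-place windows and, for pseudogenes, by the highest count; others were named after their values were seen. The members and lists were chosen with earlier results of these data known.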

Additional observations from a re-analysis of the deposited data

How the results depend on the processing

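Of the 170 segments, 31 were called between NK cells and CD8+ T cells, 29 of them higher in CD8+ T cells and 2 higher in NK cells. DESeq2 called 68 (66 and 2), where it called 29.6% of all genes against 11.4% by edgeR. Leaving out a library gave 10 to 23 calls, 9 to 21 higher in CD8+ T cells and 1 to 2 higher in NK cells, where 3.46% to 13.9% of all genes were called, with fewer libraries in the fit. Of the 31, DESeq2 called 31, RLE factors 30, no filter on low counts 23, and 7 were called in every leave-one-out fit. No fitted log2 fold change of the 41 segments followed singly changed sign under these alternatives, where Trgv2 had no value without CD8+ T cell library 1. The ratio of CD8+ T cells to NK cells for Trgv2, 3.32, ranged from 0 to 38.1 when a library was left out, and reversed to 0 without CD8+ T cell library 1, which holds its only counts in that group. The Trav ratio of 149 was 191 without pseudogenes, 239 without NK cell library 3, and 1.49 per count of Trac; the Trbv ratio of 58.8 was 17.5 per count of Trbc1 and Trbc2, alternatives chosen after seeing the data. Effective numbers of segments and the shares of Trav12-2 and Trbv12-2 moved by less than the spread between libraries when pseudogenes or a library were left out, per kb and, chosen after seeing the data, per single-place window. More than 10 counts, or thinning to the smallest library total, left 75.7 and 77.3 detected segments per CD8+ T cell library (77.3 in the main count) and 12 and 12.3 per NK cell library (14.3). Scaling by windows of the genome was not run, as no genome was used here. No paired analysis was possible because the CD8+ T cell samples and the NK cell samples share no replicate number in the labels. The comparison with WT CD8+ T cells was not run.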
